A study of Mus musculus with 6 samples.

Results

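The proteasome is the large protease that degrades ubiquitin-tagged proteins. Genes of its subunits, regulators and assembly chaperones, named Psma to Psmg, were examined in leukemic and normal mouse blood progenitors. Members were all genes whose single symbol in the platform annotation has that form followed by a digit, apart from Psmb8 and Psmb9, with the brightest probe set standing for each gene. The pattern found 46 of 13146 genes, through 91 probe sets, and all 46 passed the filter on dim genes. Of these, 2 are matched by name only: Psmc3ip encodes a recombination factor and Psme3ip1 a protein that binds an activator, and neither is a subunit. The other 44 include 4 genes of regulators and 7 of assembly chaperones. Psme2 shares its probe set with Psme2b and was therefore no member.

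Leukemia was compared with wild-type in sorted Lin-/Sca1-/cKit+ cells, a fraction that holds committed myeloid progenitors. The leukemia group (3 samples, each from a numbered mouse) consisted of cells from the spleens of lethally irradiated adult MF1 mice that had received hematopoietic progenitors transduced with AE9a, a truncated form of the AML1-ETO fusion protein. The wild-type group (3 samples) consisted of cells from the bone marrow of MF1 mice. All mice were 12 to 16 weeks old, and 200 ng of total RNA per sample were hybridised to 1 Affymetrix array each. Spleen and marrow thus differ along with the leukemia, and the 2 cannot be told apart. The sources used here do not say whether host cells were sorted along with the leukemic cells. The wild-type labels name mice in the plural, without saying whether animals were pooled, and the p-values reflect only how far these 6 samples spread.

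The 26S proteasome consists of a barrel-shaped 20S core and of 19S caps. The core has outer rings of alpha subunits, which gate entry, and inner rings of beta subunits, 3 of which carry the active sites. In the cap, a ring of ATPases unfolds substrates, while non-ATPase subunits hold the ubiquitin chain and remove it. Dividing blood cells depend on the complex for cell cycle control, and the products of interferon-inducible subunits shape the peptides that are shown on MHC class I.

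The arrays limit the precision of every value by their number. Pairs of arrays correlated over all probe sets with a Pearson's r of 0.969 to 0.978 among leukemias, of 0.992 to 0.994 among wild-type samples and of 0.902 to 0.925 across the groups. Leukemia replicate 1 stood apart and shared a fluidics run with the wild-type arrays, whereas leukemia replicates 2 and 3 were together in the other. Signal of 18S ribosomal RNA at its 5' probe set was 12.35, 11.25 and 11.14 log2 on leukemia arrays 1, 2 and 3, against 9.41, 8.18 and 7.77 on the wild-type arrays, and for Gapdh the 3' over 5' log2 ratio exceeded that of wild-type by 0.23 (two-sided exact permutation tests gave p = 0.1 for each, which is the lowest reachable with 3 against 3). The Gapdh ratio was 0.31, 0.08 and 0.006 on leukemia arrays 1, 2 and 3, against -0.14, -0.10 and -0.06 on the wild-type arrays. For Actb the same ratio was higher in leukemia by only 0.03 (p = 0.9 in a two-sided exact permutation test). The 18S and Gapdh differences accompany every result given here, and their part in the results was not tested. Of the sort and lineage markers, Kit lay at a linear intensity of 649 to 894 on leukemia arrays, against 1300 to 1370 on wild-type arrays. The summed intensity of 5 macrophage markers was 92.7 to 127 on leukemia arrays against 1510 to 2530 on wild-type arrays. In wild-type it was mostly Csf1r (mean 10.61 log2, against 4.34 in leukemia), and Cd68, C1qa and C1qb were lower in leukemia as well. The sum of 3 measured of 5 granulocyte markers was 48.1 to 54.6 against 90.5 to 480. These 3, S100a8, S100a9 and Camp, did not pass the filter, and for Camp the groups overlapped. The sum of 5 stromal and endothelial markers was 89.3 to 106 against 391 to 461. In wild-type it was mostly Pecam1 (mean 8.31 log2, against 3.70 in leukemia). Vcam1 was not called, and Col1a1, Col3a1 and Cdh5 did not pass the filter. Of 5 erythroid markers 3 were measured, with a sum of 1400 to 4060 on leukemia arrays against 2040 to 3650 on wild-type arrays that was mostly Klf1 (change -0.45, limma adjusted p = 0.448). The other erythroid markers, Alas2 and Slc4a1, were higher in leukemia by 3.87 (limma adjusted p = 2.89e-04) and 3.16 (limma adjusted p = 6.69e-05). Of the B and T cell lists only 2 and 1 of 5 markers each were measured, with sums of 60.7 to 227 against 179 to 243 and of 10.7 to 11.6 against 11.6 to 13.1. The part of such cells in the results was not tested.

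Most proteasome genes differed little between leukemia and wild-type. Of the 46 members, 4 were higher (Psma2, Psma4, Psmb2 and Psmc6, all subunits) and 5 were lower in leukemia (Psmc4, Psmd1, Psmd2, Psmd3 and Psmc3ip) by limma at an adjusted p under 0.05, and 37 did not pass. In such bulk samples, fewer cells of a type and less RNA per cell cannot be told apart. Over all 9715 tested genes the test called 42.1%, with 16.9% higher and 25.2% lower, so the members' count lay below the background share. No member changed by as much as 2-fold, where 19% of all tested genes were called with such a change. The median change of the members was -0.04 on the log2 scale and that of all tested genes was -0.09, and the median size of a change was 0.13 for the members and 0.40 for all tested genes. The groups did not overlap for 22 members, or 47.8%, against 59.2% of all tested genes. At an unadjusted p under 0.05 there were 6 higher and 7 lower members. These counts changed when single arrays were left out. Higher members numbered 0, 1 and 1 and lower members 2, 3 and 2 without wild-type replicates 1, 2 and 3 in turn. Lower members numbered 3 without leukemia replicate 2. Calls over all tested genes also fell whichever wild-type array was left out, from 4089 to as few as 2647 without wild-type replicate 3. The drop in those fits was thus not limited to members. Centring each array on its median moved all changes up by about 0.08, which gave 5 higher and 3 lower members.

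The members' changes were also measured tightly. The 95% interval of the change lay within 1 log2 unit of zero for 44 members, which is 95.7%, against 61.3% of all tested genes, with Psma8 and Psmc3ip as the exceptions. It lay within 0.5 of zero for 32 members, which is 69.6%, against 22.6% of all tested genes. Proteasome transcripts are bright on the array, and bright genes as a whole showed small changes. Among the 629 tested genes at least as bright as the median member, 93.5% and 68.8% had intervals within these bounds. Of the 23 members in that range, 100% and 91.3% did. The median size of a change was 0.08 for these 23 members and 0.17 for the 629 genes. The part of brightness in the members' small changes was not tested. In that range of brightness 4 of 23 members were called, against 37.7% of the 629 genes. The median SD between replicates was 0.09 for members in leukemia and 0.06 in wild-type, against 0.22 and 0.11 for all tested genes.

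**Figure D1:**
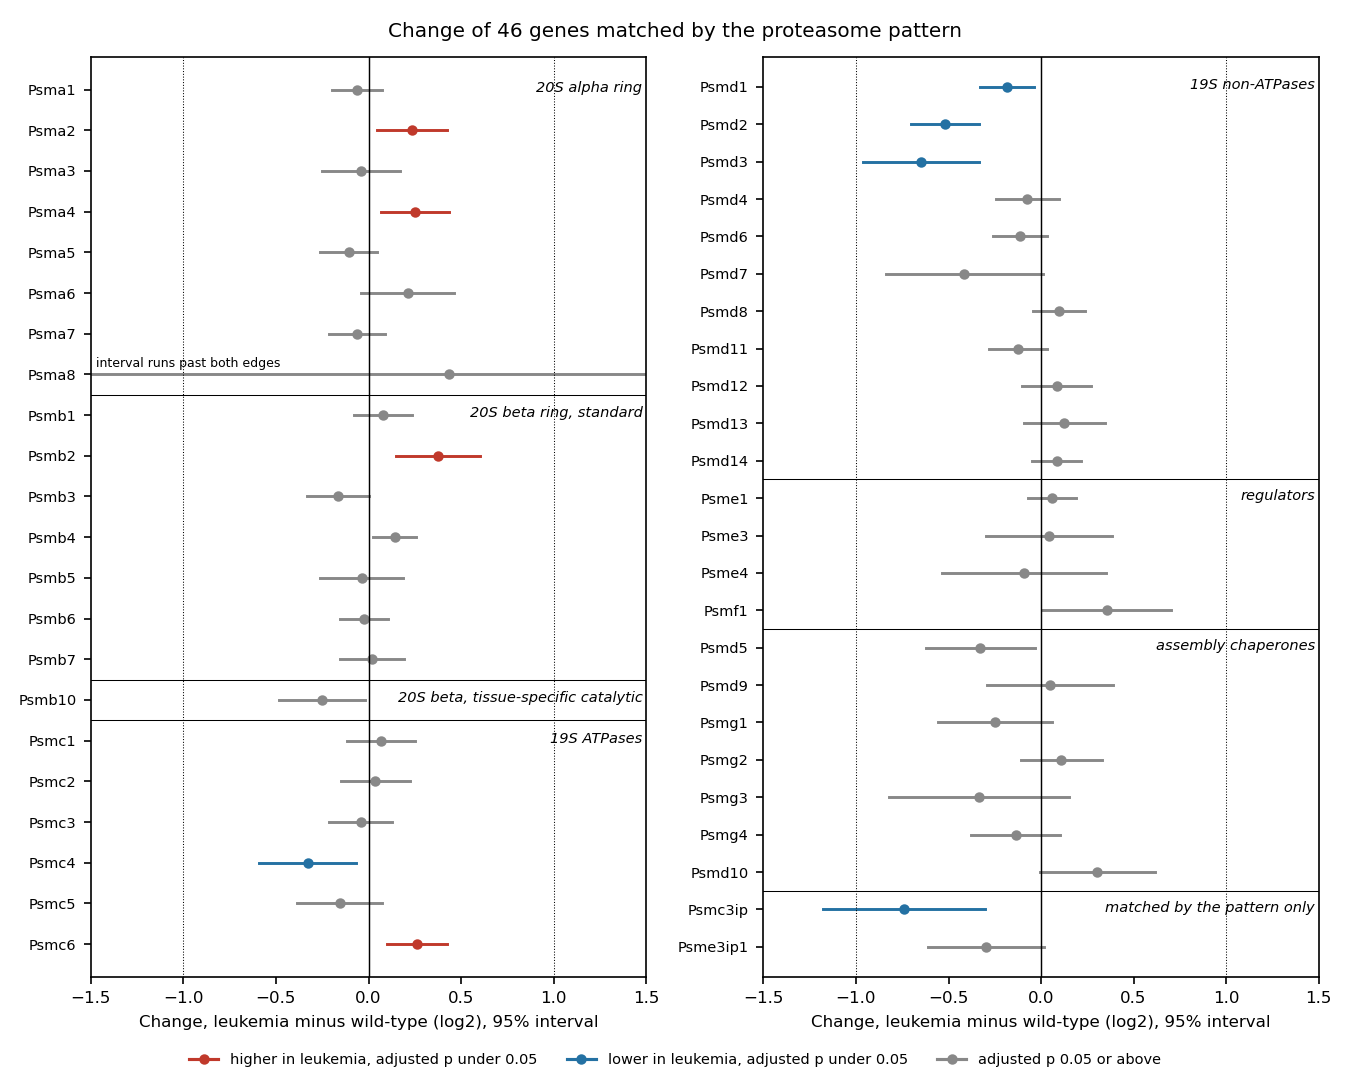
Change of each of the 46 members (leukemia minus wild-type, log2, horizontal axis) with its 95% interval from limma, grouped by role, with red for higher, blue for lower and grey for an adjusted p of 0.05 or above. All intervals except those of Psma8 and Psmc3ip lie between the dotted lines at 1 log2 unit on either side of zero.

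**Figure D2:**
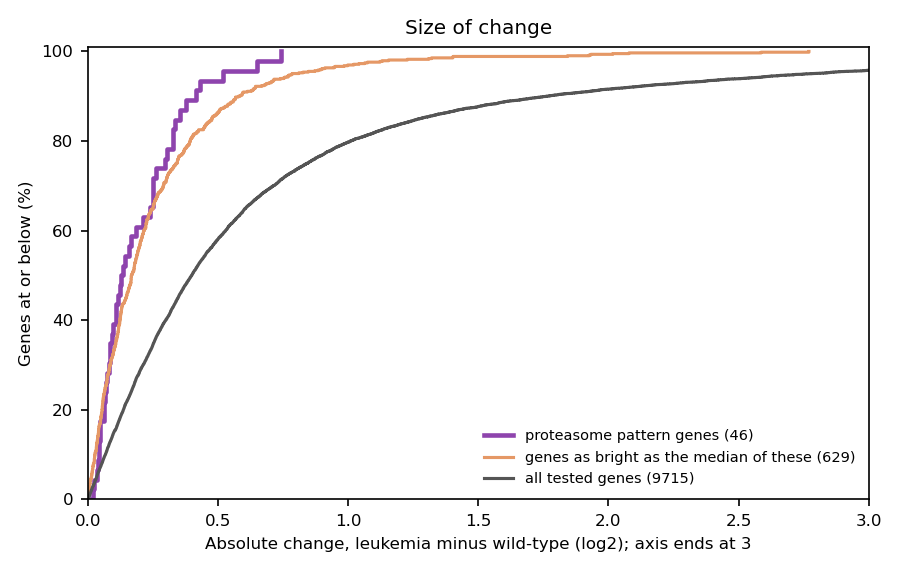
Cumulative share of genes (vertical axis, percent) by absolute change between leukemia and wild-type (horizontal axis, log2) for the 46 members, the 629 tested genes at least as bright as their median and all 9715 tested genes. The curves of the members and of the bright genes lie close together and well to the left of the curve of all tested genes. The medians are 0.13 for the members, 0.17 for the bright genes and 0.40 for all tested genes. The 46 members include genes dimmer than the 629.

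Promoters of called subunit genes are shown here because these genes moved in opposite directions within the same complex. No promoter window was found for Psmb2, which was higher, and Psmd3, which was lower, so these called genes are not shown. RefSeq windows (GRCm38.p6) were found for 38 members, and the 250 bases before the start of transcription are given 5' to 3' on the gene's strand for each called subunit gene with a single window. Psma2 lies at chr13:14612992-14613241 on the plus strand, Psma4 at chr9:54950609-54950858 on the plus strand, Psmc6 at chr14:45329574-45329823 on the plus strand, Psmc4 at chr7:28050093-28050342 on the minus strand, Psmd1 at chr1:86064369-86064618 on the plus strand and Psmd2 at chr16:20651402-20651651 on the plus strand. Capitals mark matches on either strand to TGACNNNGC, the core of the element bound by Nfe2l1 and Nfe2l2, to CCAAT, or to CCGGAA, the core of many ETS factor sites, and in these windows no matches overlap. The genes that were higher are given before those that were lower.
Psma2: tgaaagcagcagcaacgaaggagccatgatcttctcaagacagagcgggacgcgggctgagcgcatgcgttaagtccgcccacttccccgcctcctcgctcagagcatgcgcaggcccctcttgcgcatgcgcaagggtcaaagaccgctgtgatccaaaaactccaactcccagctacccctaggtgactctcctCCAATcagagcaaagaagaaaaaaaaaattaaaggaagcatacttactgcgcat
Psma4: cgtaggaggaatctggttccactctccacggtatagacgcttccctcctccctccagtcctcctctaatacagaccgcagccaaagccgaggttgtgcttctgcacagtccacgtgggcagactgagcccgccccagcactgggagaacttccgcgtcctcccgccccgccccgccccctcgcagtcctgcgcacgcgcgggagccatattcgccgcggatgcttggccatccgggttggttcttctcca
Psmc6: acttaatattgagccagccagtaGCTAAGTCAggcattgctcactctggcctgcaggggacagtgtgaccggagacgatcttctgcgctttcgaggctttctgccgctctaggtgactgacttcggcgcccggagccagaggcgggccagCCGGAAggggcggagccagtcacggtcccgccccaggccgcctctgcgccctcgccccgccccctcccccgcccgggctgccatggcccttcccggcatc
Psmc4: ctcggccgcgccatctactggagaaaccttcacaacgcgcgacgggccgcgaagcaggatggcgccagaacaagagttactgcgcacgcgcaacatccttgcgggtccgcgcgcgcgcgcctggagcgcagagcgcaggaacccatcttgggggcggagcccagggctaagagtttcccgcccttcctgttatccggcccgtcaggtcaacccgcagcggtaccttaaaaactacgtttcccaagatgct
Psmd1: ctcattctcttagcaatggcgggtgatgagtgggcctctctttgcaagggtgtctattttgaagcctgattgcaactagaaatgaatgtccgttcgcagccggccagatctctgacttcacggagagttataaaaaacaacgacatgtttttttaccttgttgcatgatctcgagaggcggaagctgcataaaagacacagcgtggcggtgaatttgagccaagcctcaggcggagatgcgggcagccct
Psmd2: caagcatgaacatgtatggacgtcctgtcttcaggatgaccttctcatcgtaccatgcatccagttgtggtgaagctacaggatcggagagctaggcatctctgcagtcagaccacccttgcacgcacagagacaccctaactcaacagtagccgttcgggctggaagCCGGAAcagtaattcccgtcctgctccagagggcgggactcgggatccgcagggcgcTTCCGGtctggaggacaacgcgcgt

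The ETS core was found in 19 of 41 member windows (46.3%), against 12.0% of all 32851 RefSeq windows of the same length. Among called members the ETS core occurred in Psmc6, which was higher, and in Psmd2 (at 2 places) and Psmc3ip, which were lower. The member windows include those of Psmc3ip and Psme3ip1, which are no subunits. The Nfe2l1 and Nfe2l2 core was found in 5 of 41 member windows (12.2%), against 10.2% of all windows, and CCAAT in 14 (34.1%), against 33.8%. The median GC content was 57.6% for the member windows and 52.4% for all windows. Psma4, Psmc4 and Psmd1 held no match to these letters in the printed windows.

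Of the 8 alpha ring genes 2 were higher (25%, against 16.9% of all tested genes) and none was lower (0 also at an unadjusted p under 0.05, limma). Psma2, whose protein is a subunit of the ring, was at 11.97, 11.69 and 11.75 log2 on leukemia arrays 1, 2 and 3, against 11.60, 11.54 and 11.56 on the wild-type arrays. All leukemia values lay above all wild-type values, with leukemia replicate 1 highest (change 0.24 ± 0.08 SE, limma adjusted p = 0.0498). Psma4, another ring subunit, was at 11.84, 11.99 and 12.12 log2 in leukemia, against 11.77, 11.70 and 11.72 in wild-type. Here too the groups did not overlap, but leukemia replicate 1 was the lowest of its group (change 0.25 ± 0.08 SE, limma adjusted p = 0.0374). Psma1, Psma3, Psma5, Psma6 and Psma7 did not pass, with changes of -0.11 to 0.21 on the log2 scale.

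Those rises lay close to the threshold. Psma2 no longer passed when leukemia replicate 3 (limma adjusted p = 0.0646) or any of wild-type replicates 1, 2 and 3 (0.103, 0.139 and 0.136) was left out. Psma4 no longer passed when leukemia replicate 2 or 3 (limma adjusted p = 0.0788 and 0.0816) or any of wild-type replicates 1, 2 and 3 (0.0828, 0.115 and 0.112) was left out, nor under the fluidics run block (change 0.10, adjusted p = 0.250). The change of Psma2 was 0.40 on leukemia replicate 1 alone and 0.16 without it.

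Psma8, which encodes a variant alpha subunit known from the testis of mice, differed among the leukemias. It was at 8.27, 8.05 and 3.55 log2 on leukemia arrays 1, 2 and 3, against 6.06, 6.001 and 6.50 on the wild-type arrays. Leukemia replicates 1 and 2 lay above all wild-type arrays, while leukemia replicate 3 lay below them and below the filter level of that array, its 40th percentile (5.42). The mean change was 0.43 with an interval of -2.36 to 3.23 (limma adjusted p = 0.786), and it was -0.39 without leukemia replicate 1 and -0.28 without leukemia replicate 2. Without leukemia replicate 3 it was 1.97 and passed (limma adjusted p = 0.00100). The SD in leukemia was 2.66, against 0.28 in wild-type. A single probe set represents this gene.

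Of the 7 standard beta ring genes, Psmb2 was higher (14.3%, against 16.9% of all tested genes). None was lower (0 also at an unadjusted p under 0.05, limma), against 25.2% of all tested genes. Psmb2 encodes a beta subunit without an active site of its own. It was at 11.31, 11.09 and 11.14 log2 in leukemia, against 10.65, 10.86 and 10.90 in wild-type. The groups did not overlap (change 0.38 ± 0.10 SE, a 1.30-fold rise, limma adjusted p = 0.0184). It did not pass when wild-type replicate 1 was left out (change 0.30, limma adjusted p = 0.0622) or when the replicate number was a block (limma adjusted p = 0.0542). Psmb4 did not pass (change 0.14, limma adjusted p = 0.0578). It passed with centred arrays (0.22, limma adjusted p = 0.0276) and with quantile normalization (0.16, limma adjusted p = 0.0322). Psmb1 passed under other probe set rules, as given below.

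The genes of the catalytic subunits stayed within a narrow range. Psmb5, whose product has the chymotrypsin-like activity and is the main target of bortezomib, was at 10.87, 11.14 and 11.18 log2 in leukemia, against 11.11, 11.05 and 11.15 in wild-type. The groups overlapped, with leukemia replicate 1 below the rest (change -0.04, interval -0.26 to 0.19, limma adjusted p = 0.773). Psmb6, with the caspase-like activity, was at 11.08, 11.10 and 11.11 log2 in leukemia, against 11.12, 11.11 and 11.14 in wild-type (change -0.02, interval -0.15 to 0.11, limma adjusted p = 0.745). Psmb7, with the trypsin-like activity, was at 11.40, 11.49 and 11.58 log2 in leukemia, against 11.47, 11.39 and 11.55 in wild-type (change 0.02, interval -0.15 to 0.19, limma adjusted p = 0.852). No member of this trio passed in either direction (0 at an unadjusted p under 0.05 too, limma), and their intervals leave room for changes of up to 0.26 on the log2 scale. On leukemia replicate 1 alone, with the fluidics run as a block, Psmb5 was lower (change -0.23, adjusted p = 0.0345, limma).

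Psmb10 encodes the interferon-inducible subunit that takes the place of the Psmb7 product in the immunoproteasome. It was at 10.19, 10.31 and 10.24 log2 in leukemia, against 10.34, 10.65 and 10.49 in wild-type. All leukemia values lay below all wild-type values, yet the change did not pass after adjustment (-0.25, interval -0.48 to -0.02, limma adjusted p = 0.0793, unadjusted p = 0.0382). The difference Psmb10 minus Psmb7 within each array was -1.21, -1.18 and -1.34 log2 in leukemia, against -1.13, -0.74 and -1.06 in wild-type. All 3 leukemia values lay below all 3 wild-type values (difference of the means -0.27, p = 0.1 in a two-sided exact permutation test, the lowest this design can reach). Without wild-type replicate 2, which had the highest value of Psmb10, the shift was -0.15.

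In the ATPase ring of the cap, Psmc6 was higher and Psmc4 lower. That is 33.3% called of 6 genes, against 42.1% of all tested genes. Psmc6 was at 10.68, 10.61 and 10.62 log2 in leukemia, against 10.40, 10.33 and 10.39 in wild-type. The groups lay well apart (change 0.26 ± 0.07 SE, limma adjusted p = 0.0204). Psmc4 was at 9.81, 10.11 and 10.18 log2 in leukemia, against 10.36 on each of the wild-type arrays. It was lowest on leukemia replicate 1 (change -0.33 ± 0.11 SE, limma adjusted p = 0.0494). The other ATPase genes, Psmc1, Psmc2, Psmc3 and Psmc5, did not pass, with changes of -0.16 to 0.07.

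These calls were also lost in fits with single arrays left out, and they depended on the probe set. Psmc6 did not pass when wild-type replicate 1, 2 or 3 was left out (limma adjusted p = 0.0600, 0.0755 and 0.0716). Its other probe sets differed by 0.00 and, for one below the filter, by -0.05, and the mean over all 3 gave 0.07 (limma adjusted p = 0.633). Psmc4 did not pass without leukemia replicate 2 (adjusted p = 0.0626, limma) or without wild-type replicates 1, 2 or 3 (0.129, 0.123 and 0.136). In 10 of 17 alternatives Psmc4 lost the call, among them both other filter settings, averaged probe sets, centred arrays and the replicate block. Its change was -0.55 on leukemia replicate 1 alone and -0.22 without that array, and its second probe set differed by -0.06.

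Of the 11 non-ATPase genes of the cap, 3 fell and none rose (0 at an unadjusted p under 0.05 too, limma), and their median change was -0.12. These called genes are 27.3% of the group, against 42.1% called and 25.2% lower among all tested genes. Psmd3, a subunit of the lid, was at 9.40, 9.84 and 9.82 log2 in leukemia, against 10.33, 10.29 and 10.37 in wild-type. Every leukemia array lay below every wild-type array, leukemia replicate 1 the furthest (change -0.65 ± 0.13 SE, a 1.57-fold fall, limma adjusted p = 0.00788). Psmd2, the large scaffold subunit of the base that docks ubiquitin shuttles, was at 10.53, 10.66 and 10.71 log2 in leukemia, against 11.09, 11.14 and 11.23 in wild-type. The groups did not overlap and the gap exceeded the spread in both (change -0.52 ± 0.08 SE, a 1.43-fold fall, limma adjusted p = 0.00213). Psmd2 and Psmd3 were the 2 of the 9 called members that passed under all 17 alternatives. Each has a single probe set, so the other probe set rules left its change as it was. This also holds for Psma2, Psma4, Psmb2 and Psmd1.

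Psmd1, the other large scaffold subunit of the base, was at 10.76, 10.77 and 10.70 log2 in leukemia, against 10.91, 10.91 and 10.95 in wild-type. The groups did not overlap, but the change was small (-0.18 ± 0.06 SE, limma adjusted p = 0.0496). It did not pass without leukemia replicates 2 or 3 (adjusted p = 0.0720 and 0.122, limma) or without wild-type replicates 1, 2 or 3 (0.129, 0.114 and 0.166). With centred arrays it did not pass either (change -0.10, adjusted p = 0.292, limma). In 12 of 17 alternatives Psmd1 lost the call, among them no filter, the 60th percentile filter, no intensity trend and the replicate block.

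Psmd4 and Psmd14 did not pass. Psmd4, a ubiquitin receptor, was at 10.97, 10.91 and 11.0045 log2 in leukemia, against 11.11, 10.94 and 11.05 in wild-type (change -0.07, interval -0.24 to 0.09, limma adjusted p = 0.433). Psmd14, the protease that cuts ubiquitin from the substrate, was at 11.44, 11.43 and 11.44 log2 in leukemia, against 11.39, 11.29 and 11.37 in wild-type. Its groups did not overlap, though the change of 0.08 did not pass (interval -0.05 to 0.22, limma adjusted p = 0.257). Psmd7, the partner of Psmd14 in the lid, was at 8.84, 9.25 and 9.40 log2 in leukemia, against 9.81, 9.38 and 9.54 in wild-type, and the groups overlapped (change -0.41, interval -0.84 to 0.01, limma adjusted p = 0.103). With the mean of its probe sets it passed (-0.50, adjusted p = 0.0392, limma). Its change was -0.73 on leukemia replicate 1 alone and -0.25 without that array. The remaining lid and cap genes, Psmd6, Psmd8, Psmd11, Psmd12 and Psmd13, had changes of -0.12 to 0.13.

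Taking core and cap as wholes, 3 of 16 core genes were higher and none was lower (1 lower at an unadjusted p under 0.05, limma), while 1 of 17 cap genes was higher and 4 were lower. Among all tested genes 16.9% were higher and 25.2% lower, and the shares of the core that were higher and of the cap that were lower lie near these. The median changes were -0.00 for the core and -0.07 for the cap. The difference between core and cap was not tested.

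**Figure D3:**
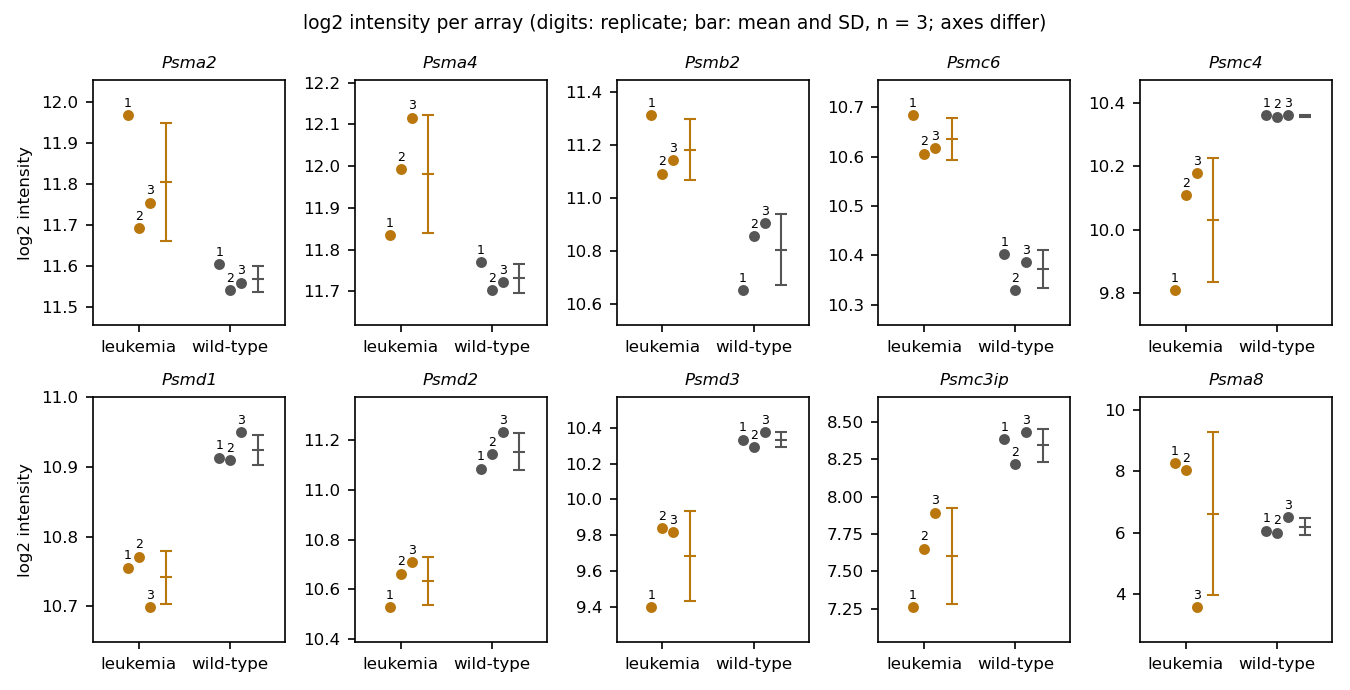
log2 intensity (vertical axis, scaled separately for each gene) on each leukemia and wild-type array for the 9 called members and Psma8, with digits for replicates and bars for mean and SD (n = 3). The groups do not overlap for any of the 9, whereas leukemia values of Psma8 lie on either side of the wild-type values.

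Of the 4 measured regulators, none passed in either direction (1 at an unadjusted p under 0.05, limma), against 42.1% of all tested genes. Psme1, a subunit of the interferon-inducible activator, was at 11.84, 11.92 and 11.95 log2 in leukemia, against 11.78, 11.88 and 11.86 in wild-type (change 0.06, interval -0.07 to 0.19, limma adjusted p = 0.398). Psme3, which forms the related activator of the nucleus, was at 8.72, 8.82 and 8.80 log2 in leukemia, against 8.52, 8.69 and 8.99 in wild-type (change 0.04, interval -0.30 to 0.38, limma adjusted p = 0.819). In both cases the groups overlapped. Within arrays, Psme1 minus Psme3 was 0.02 higher in leukemia (exact permutation p = 1, two-sided), and -0.10 without wild-type replicate 3. Psmf1, an inhibitor of the core in vitro, was at 9.20, 8.98 and 8.86 log2 in leukemia, against 8.81, 8.44 and 8.71 in wild-type. Its groups did not overlap, and its change of 0.36 did not pass (limma adjusted p = 0.0920). Psme4, a large activator of the nucleus, spread over 9.83, 9.07 and 9.40 log2 in leukemia, against 9.57, 9.45 and 9.56 in wild-type (change -0.09, limma adjusted p = 0.711).

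The 7 genes of assembly chaperones also held no call (1 at an unadjusted p under 0.05, limma), against 42.1% of all tested genes. Their products help to build the core or the cap and then leave. Psmg3, a chaperone of the alpha ring, was at 9.12, 9.86 and 9.85 log2 in leukemia, against 10.01, 9.81 and 10.01 in wild-type. Leukemia replicate 1 lay apart from all other arrays (change -0.33, limma adjusted p = 0.228). Psmg1, another alpha ring chaperone, had the same outlying array, at 10.39, 10.81 and 10.84 log2 in leukemia, against 10.88, 10.89 and 11.01 in wild-type (change -0.25, limma adjusted p = 0.165). Psmd5, a chaperone of the cap base, was at 9.34, 9.65 and 9.56 log2 in leukemia, against 9.96, 9.68 and 9.90 in wild-type (change -0.33, limma adjusted p = 0.0713). Psmd10, a base chaperone also known as gankyrin, was at 8.75, 8.52 and 8.81 log2 in leukemia, against 8.43, 8.25 and 8.48 in wild-type (change 0.30, limma adjusted p = 0.103). For Psmg1, Psmd5 and Psmd10 the groups did not overlap. Psmd9, Psmg2 and Psmg4 had changes of -0.14 to 0.11.

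The largest fall among the 46 belonged to Psmc3ip, which is no proteasome gene and acts in meiotic recombination. It was at 7.26, 7.65 and 7.89 log2 in leukemia, against 8.38, 8.22 and 8.43 in wild-type. The groups did not overlap (change -0.74 ± 0.18 SE, a 1.67-fold fall, limma adjusted p = 0.0174), and its second probe set was also lower, by -0.35. It failed to pass when wild-type replicate 1 or 3 was left out (limma adjusted p = 0.0646 and 0.0723). Psme3ip1 was at 9.17, 9.42 and 9.63 log2 in leukemia, against 9.64, 9.70 and 9.78 in wild-type (change -0.30, limma adjusted p = 0.111). Without this pair, 4 of 44 genes were higher and 4 lower, which is 18.2% called, against 42.1% of all tested genes.

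Leukemia replicate 1 accounted for much of the spread among the leukemias. It was the lowest of the leukemia arrays for 25 of 46 members and the highest for 15. Its median distance from the mean of leukemia replicates 2 and 3 was 0.14 on the log2 scale, while those arrays differed from each other by a median of 0.07, against 0.28 and 0.17 over all tested genes. With the fluidics run as a block, each change compares this array by itself with the mean of the wild-type arrays. Then 5 members were higher and 12 lower, where the same fit called 52.8% of all tested genes, with the spread of this lone array taken to equal that of the rest. The changes of the chaperone genes Psmg3 and Psmg1 were then -0.82 and -0.54. Without leukemia replicate 1, all 9 called members were called again in the same direction and no further member was, where 48.5% of all tested genes were called. Psmg3 was then at -0.09 and Psmg1 at -0.10.

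**Figure D4:**
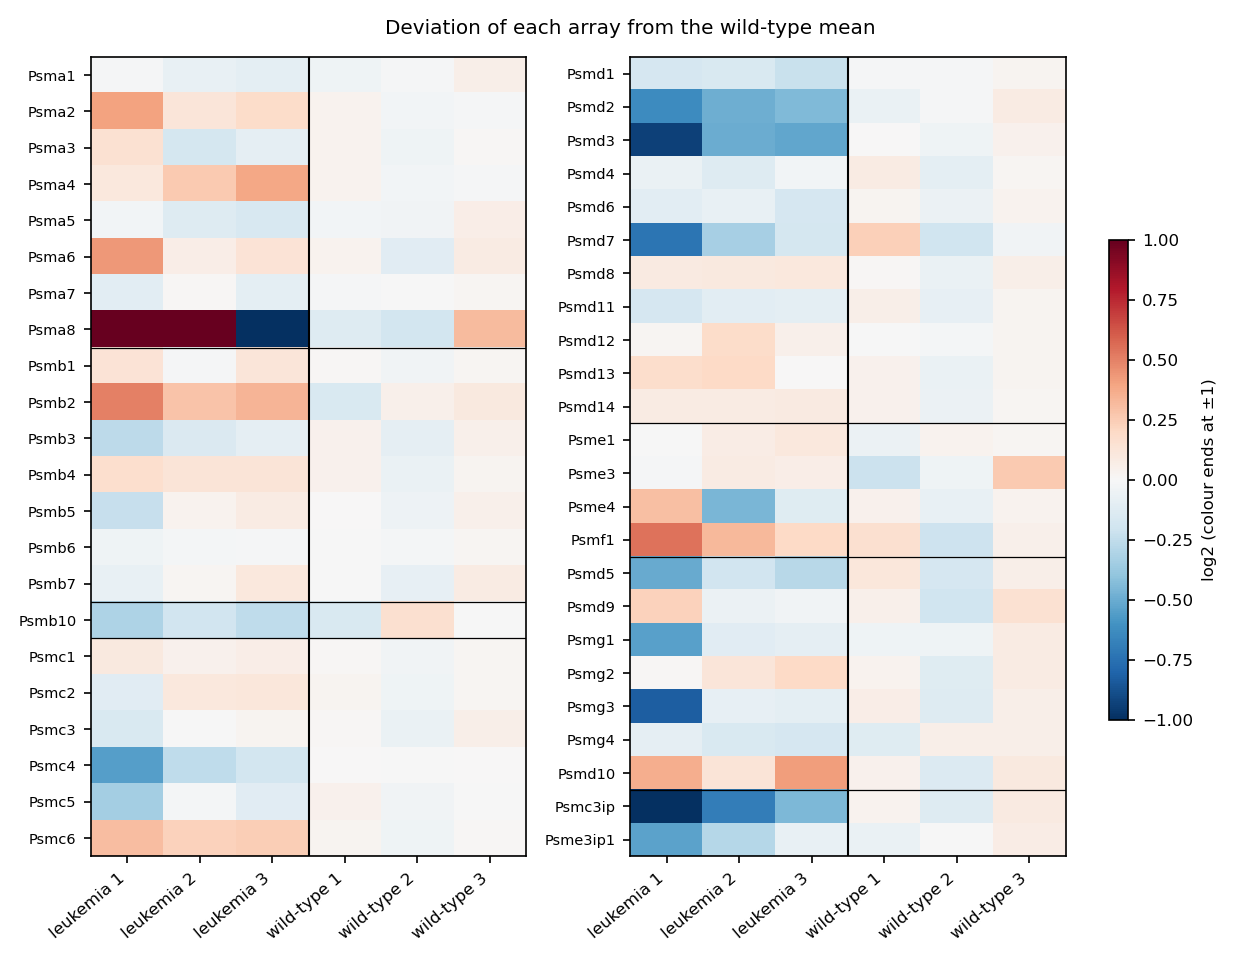
Deviation of each array from the wild-type mean (colour, log2, ending at 1 on either side of zero) for the 46 members in rows, with the leukemia arrays in the left 3 columns and the wild-type arrays in the right 3. Psmd2 and Psmd3 are low on all leukemia arrays, Psmg3 and Psmg1 are low mainly on leukemia replicate 1, and Psma8 is high on leukemia replicates 1 and 2 and low on replicate 3.

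Further probe sets did not always give the direction of the brightest. Of 24 members with several probe sets, 30 further probe sets passed the filter, and 20 of these differed in the same direction. Psmd11 encodes a lid subunit. Its brightest probe set was at 10.96, 11.02 and 11.03 log2 in leukemia, against 11.19, 11.04 and 11.15 in wild-type, while its second was at 10.50, 10.24 and 10.28 in leukemia, against 9.91, 9.69 and 9.89 in wild-type. The brightest gave -0.12 (limma adjusted p = 0.170). The second gave 0.51 and passed where probe sets with names ending in _s_at, _x_at or _a_at were dropped (limma adjusted p = 0.00940). Its 3 other probe sets gave -0.05, -0.36 and 0.72. The fourth probe set of Psmd13, a dim one, gave -1.51 where the brightest gave 0.13. A dimmer second probe set of Psmb1, above the filter, gave 1.04 where the brightest gave 0.08. With this second probe set in place of the brightest Psmb1 passed (limma adjusted p = 0.00246). The mean of its probe sets passed too (0.44, limma adjusted p = 0.0165). Psmb3, a beta subunit, gave -0.17 with its brightest probe set and 0.20 with the other. For the called members the 3 further probe sets had the sign of the chosen one, that of Psmc6 at 0.00.

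Genes whose products work with the proteasome included some with larger changes than any subunit gene. Of 36 listed partners 27 were measured and 26 tested, of which 2 were higher and 7 lower in leukemia (34.6%, against 42.1% of all tested genes), with a median change of -0.15. Nfe2l1, the transcription factor that raises proteasome gene expression when proteasome activity is short, was at 7.51, 7.85 and 7.86 log2 in leukemia, against 8.71, 9.04 and 8.80 in wild-type. The groups lay far apart (change -1.11 ± 0.15 SE, limma adjusted p = 0.00153). Ngly1, the deglycosylase that Nfe2l1 protein needs for its activity, was at 9.93, 9.85 and 10.19 log2 in leukemia, against 9.13, 8.98 and 9.15 in wild-type, and rose (change 0.90 ± 0.12 SE, limma adjusted p = 0.00126). The related factor Nfe2l2 was at 7.91, 9.21 and 9.35 log2 in leukemia, against 9.90, 9.61 and 10.00 in wild-type. It did not pass (change -1.02, limma adjusted p = 0.0622) and depended on single arrays: it passed when leukemia replicate 1 (-0.56, limma adjusted p = 0.0143) or leukemia replicate 3 (-1.28, limma adjusted p = 0.0350) was left out. With the mean of its probe sets it was 0.61.

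Of the 7 tested genes for further assembly factors and cap-associated proteins, none passed (0 at an unadjusted p under 0.05 too, limma). Over all tested genes 42.1% passed. The changes of these 7 genes ran from -0.26 to 0.19. Among them Pomp, the maturation factor of the core, was at 11.19, 10.85 and 11.19 log2 in leukemia, against 11.12, 11.20 and 11.26 in wild-type (change -0.11, limma adjusted p = 0.427). Of 10 tested genes for shuttles and unfolding factors, 5 fell and none rose, which is 50% called, against 42.1% called and 25.2% lower among all tested genes. The shuttle gene Ubqln4 fell by 0.98 (limma adjusted p = 0.00290). Vcp, the ATPase that extracts ubiquitin-tagged proteins and was named after its value was seen, fell by 0.77 (limma adjusted p = 0.00340). Zfand5, which binds the cap, fell by 0.81 with its brightest probe set (limma adjusted p = 0.00770), but the mean over its probe sets was 0.23. Of the peptidases that act on proteasome products, Thop1 fell by 1.57 (limma adjusted p = 0.00769) and Tpp2 rose by 0.45 (limma adjusted p = 0.0199). Leaving out wild-type replicate 1, 2 or 3 ended the call of Tpp2 (limma adjusted p = 0.0526, 0.0759 and 0.0691).

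Genes that load proteasome products on MHC class I were mostly lower in leukemia. Of 9 such genes 8 fell and none rose (0 at an unadjusted p under 0.05, limma), with a median change of -0.69. That is 88.9% called, against 42.1% called and 25.2% lower among all tested genes. This list, like that of the partner genes, was chosen with earlier results of these data known. Tap2, a subunit of the peptide transporter, was at 8.13, 8.25 and 8.18 log2 in leukemia, against 9.56, 9.77 and 9.49 in wild-type. The groups lay far apart (change -1.42 ± 0.12 SE, limma adjusted p = 1.40e-04). Its partner Tap1 fell by 1.03 (limma adjusted p = 8.98e-04), the chaperone gene Calr by 1.02 (adjusted p = 0.00235) and B2m, the light chain of the class I molecule, by 0.77 (adjusted p = 5.95e-05). Tapbp, which bridges transporter and class I molecule, was the gene that did not pass (change -0.02, limma adjusted p = 0.930). Macrophage and granulocyte marker sums were lower in leukemia as well, though the measured granulocyte markers did not pass the filter. The part of such cells in these differences was not tested.

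**Figure D5:**
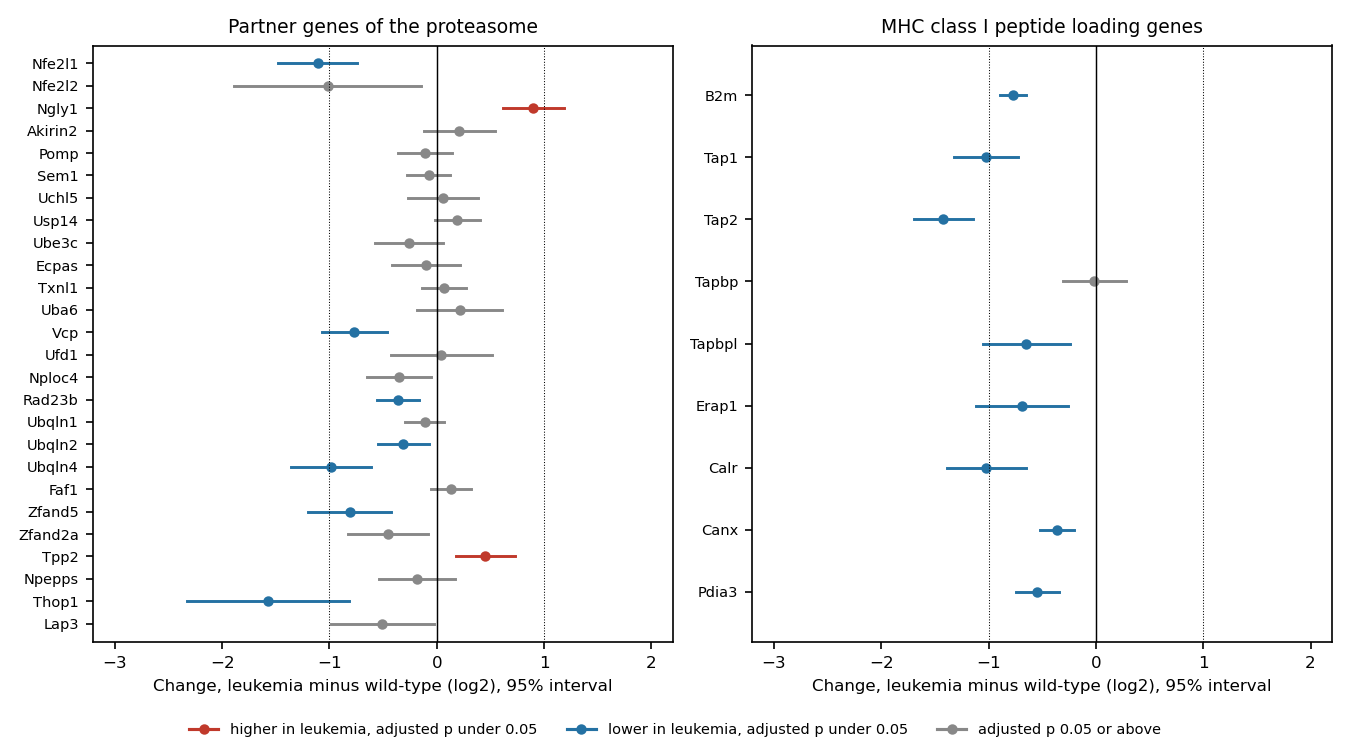
Change (leukemia minus wild-type, log2, horizontal axis) with 95% interval for the 26 tested partner genes of the proteasome and the 9 genes of MHC class I peptide loading, with red for higher, blue for lower and grey for an adjusted p of 0.05 or above. Nfe2l1 lies at -1.11 and Ngly1 at 0.90, and 8 of the 9 class I genes lie below zero in blue.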

How the data were processed

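The authors' deposited table gives linear intensity (3.31 to 18869) for 28821 probe sets of the Affymetrix Mouse430_2 array. It was made with RMA, per the submitters' processing notes, whose version and settings are not given in the sources used here. Values on a log2 scale had been foreseen, so log2 of the deposited intensity was taken, with nothing added. Array run records gave only the fluidics run (2 runs by hybridization entry) and the chip lot. All value columns were mapped to samples through their own names.

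Probe sets with 1 gene symbol (23750) were kept, and the brightest by mean log2 represented each gene, giving 13146 genes. Genes had to reach the 40th percentile of an array's probe sets on 3 or more arrays, which left 9715. These were tested two-sided with limma 3.58.1 (R 4.3.3; lmFit, then eBayes allowing a trend with intensity), without covariates, and p was adjusted by Benjamini-Hochberg over all of them at a threshold of 0.05. Each change is leukemia minus wild-type. The procedure was tested on simulated data. Single within-array differences had exact permutation tests, two-sided. Same-numbered replicates did not deviate together (r = -0.07, 0.05 and 0.03 over tested genes), so the numbers were not taken as pairs. Named were all members past the threshold, a preset panel of catalytic, regulatory and ubiquitin-handling members, up to 4 partner and class I genes per direction, and Nfe2l1, Nfe2l2 and Pomp. Members and lists were chosen with earlier results of these data known. Alternatives covered the filter, probe set rule, scaling, variance model, array weights, blocks and each array left out. Promoter windows came from RefSeq (GRCm38.p6). Figures were drawn with matplotlib 3.10.9.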

Additional observations from a re-analysis of the deposited data

Results flagged for a closer look

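Ribosomal 18S RNA, read by its 5' probe set, enters no gene comparison. Its signal was 3.13 log2 units higher on the leukemia arrays than on the wild-type arrays, with means of 11.58 ± 0.67 in leukemia and 8.45 ± 0.85 in wild-type (SD, n = 3 per group). The two-sided exact permutation test gave p = 0.1, the lowest it can reach here.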

How the results depend on the processing

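In the alternatives that gave a value, 16 for Psmc6 and 17 for each of the other called members, none of the 9 turned its direction. Psmc6 had no value with probe sets free of shared endings, where its remaining probe set (-0.05) was below the filter. Psmd2 (-0.63 to -0.44) and Psmd3 (-0.94 to -0.50) passed in all 17, where the other probe set rules could not alter their changes. The call was lost in 12 alternatives for Psmd1, 10 for Psmc4, 8 for Psma4, 7 for Psma2 and 6 for Psmc6. For Psmb2 and Psmc3ip it was lost in 2 each. The count of higher members was 1 without an intensity trend and 0 with the replicate number as a block (5 at an unadjusted p under 0.05, limma), and 0 to 4 when single arrays were left out, with 0 without wild-type replicate 1 (6 at an unadjusted p under 0.05). The count of lower members was 3 with no filter, 3 with the 60th percentile filter, 3 with centred arrays, 3 without the trend, 3 with the replicate block, 12 with the fluidics run block and 2 to 5 with arrays left out. Higher partner genes numbered 1 with probe sets free of shared endings, 6 with the fluidics run block and 1 to 4 with arrays left out, and lower ones 5 to 9. All changed genes numbered 2647 to 4716 with arrays left out. The median change of proteasome members was -0.025 with averaged probe sets, 0.040 with centred arrays, -0.029 with quantile normalization, -0.054 with array weights and -0.064 to -0.014 with arrays left out. Psmb10 minus Psmb7 shifted by -0.35 to -0.15 and Psme1 minus Psme3 by -0.10 to 0.094 with arrays left out. The replicate block took the call from 6 of 60 named genes and gave it to 0. Of the values of single named genes under an alternative, 899 kept direction and side of the threshold, 50 lost and 21 gained the call, and 46 changed sign. The values that changed sign are log2 changes. With arrays centred on the median, the values were Psma1 0.018, Psma3 0.038, Psma7 0.015, Psmb5 0.042, Psmb6 0.055, Psmc3 0.037, Psmd4 0.0053 and Tapbp 0.064. With the fluidics run block, the values were Psma3 0.15, Psmb7 -0.074, Psmc2 -0.11, Psme1 -0.00060, Psme3 -0.012, Psme4 0.30 and Pomp 0.0049. With probe sets with shared endings dropped, the values were Psma6 -0.0064 and Psmd11 0.51. With array weights, the values were Psma8 -0.059, Psmb5 0.017, Psmd9 -0.065 and Tapbp 0.062. With averaged probe sets, the values were Psmb3 0.018, Psmd11 0.14, Psmd13 -0.28, Psme3 -0.012, Psme4 0.086, Psmd9 -0.18, Zfand5 0.23, Nfe2l2 0.61 and Tapbp 0.16. With single arrays left out, the ranges were Psma3 -0.14 to 0.028, Psma8 -0.39 to 1.97, Psmb5 -0.096 to 0.060, Psmb7 -0.026 to 0.064, Psmc2 -0.0044 to 0.11, Psmc3 -0.076 to 0.012, Psme3 -0.062 to 0.17, Psme4 -0.29 to 0.088, Psmd9 -0.050 to 0.12, Pomp -0.17 to 0.0021 and Tapbp -0.13 to 0.11. The causes were not tested. The lowest signal among members was that of Psma8 on leukemia replicate 3, at 3.55 log2, under that array's filter level of 5.42.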
